A study of Homo sapiens with 6 samples.

Results

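The 10 genes described here are members of the circadian clock: CLOCK, PER1, PER2, PER3, CRY1, CRY2, NR1D1, NR1D2, DBP and BHLHE40. They were taken by symbol from a table of 50550 genes and other features, 44494 of them with a gene symbol, and all 10 were found and passed the filter on low counts. RNA had been sequenced from 6 libraries of U2OS, an established human osteosarcoma cell line: 3 titled Lv_LINC00673 (genotype label LINC00673) and 3 titled Lv_NC (genotype label NC). The series' design text speaks of wild-type cells and of derivatives in which the long noncoding RNA LINC00673 was knocked down, and the labels do not spell out NC, so Lv_NC may be wild-type cells or a vector control. All fold changes are Lv_LINC00673 over Lv_NC. The labels give no harvest time and no synchronisation. The phase of the daily cycle is thus not known, nor whether the cells of a library, or the 2 groups, shared a phase.

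The mammalian clock is a transcriptional feedback loop. The proteins CLOCK and BMAL1 pair and bind E-box sequences, switching on the PER and CRY genes, whose proteins return to the nucleus and hold CLOCK and BMAL1 back. A second loop runs through NR1D1 and NR1D2 (REV-ERB alpha and beta), which repress BMAL1 and other genes at sites shared with the activating ROR receptors, while DBP activates D-box genes and BHLHE40 (DEC1) competes at E-boxes. U2OS cells are widely used as a cell model of this clock.

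Total counts ranged from 61815841 to 87227980 per library. The targeted LINC00673 was at 6.39 ± 0.159 CPM (counts scaled by TMM-adjusted library size; SD, n = 3) in Lv_LINC00673 and 8.50 ± 1.24 in Lv_NC, and did not pass the test (log2 fold change -0.41, SE 0.16, edgeR adjusted p = 0.0924), though the groups did not overlap and it passed in DESeq2 (-0.44, adjusted p = 0.0421). The groups are named by their titles. Of 10 osteoblast and osteosarcoma markers, 5 reached 1 FPKM (fragments scaled by transcript length and library size) in some library, with a summed level of 173.3 to 189.6 FPKM in Lv_LINC00673 and 179.7 to 191.1 FPKM in Lv_NC, while TWIST1 had 0 counts. Of these 5, RUNX2 and ALPL rose (log2 fold changes 1.25 and 0.50, edgeR adjusted p = 0.00921 and 0.0278), SPARC fell (-0.36, adjusted p = 0.0141), and COL1A1 and SPP1 did not pass; their part in the results below was not tested. Of the 20 markers of other cell types, 4 reached 1 FPKM: CD68, EPCAM, SNAP25 and SYP. Fold changes over all genes followed transcript GC content and length. Among 11074 expressed genes split in deciles, median log2 fold changes were 0.62 at the lowest GC content and -0.25 at the highest, and -0.34 for the shortest transcripts and 0.52 for the longest. A second fit with a GC and length offset per library is therefore quoted where it changes a call, the direction or the size of a clock gene's change; the part of GC content and length in these changes was not tested otherwise. Scaling by library totals in place of TMM factors raised the median log2 fold change of all genes by 0.17.

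In Lv_LINC00673, 2 of the 10 clock genes rose and 3 fell (edgeR's quasi-likelihood test, adjusted p under 0.05). CLOCK and PER3 rose by 2.86-fold and 2.42-fold, and PER1, CRY2 and NR1D1 fell to 68.2, 72.5 and 80.6% of their Lv_NC level. PER2, CRY1, NR1D2, DBP and BHLHE40 did not pass. Among all 21933 genes tested, 26.8% passed, 14.3% higher and 12.5% lower, and with library totals 24.1% passed, 18.5% higher and 5.58% lower. Among genes with at least 1 CPM in 3 libraries, 4 of the 10 clock genes passed, against 36.4% of all 16080 genes. Without Lv_LINC00673 library 2 or 3 or Lv_NC library 2 or 3, 3 clock genes passed (CLOCK, PER3 and PER1), where 12.0, 12.5, 15.8 and 12.7% of all genes did. Without Lv_LINC00673 library 1, 6 clock genes and 28.5% of all genes passed. The groups did not overlap in CPM at 7 of the 10 clock genes, against 45.1% of all genes tested. The 2 clock genes that rose changed by more than 2-fold, as did 7.55% of all genes in that direction and 8.38% in either. In bulk RNA a lower level per cell and fewer cells with the transcript cannot be told apart. The labels do not say whether the 3 libraries of a group were separate cultures, so the p-values rest on a spread that may be technical only.

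**Figure D1:**
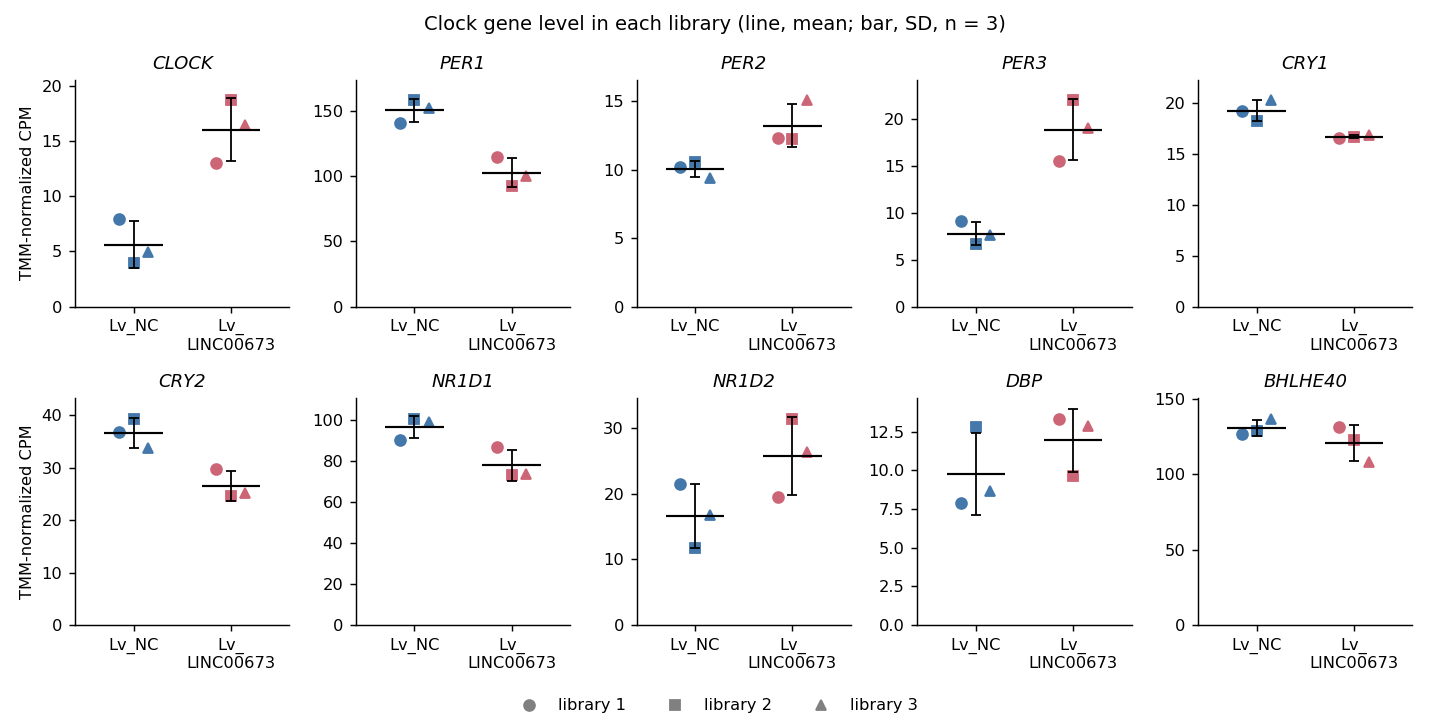
TMM-normalized CPM of each clock gene (vertical axes, from 0) in the 3 Lv_NC and 3 Lv_LINC00673 libraries; symbols mark the library number, lines the mean and bars the SD. CLOCK, PER2 and PER3 lie higher in all 3 Lv_LINC00673 libraries and PER1, CRY1, CRY2 and NR1D1 lower, while the groups overlap at NR1D2, DBP and BHLHE40.

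CLOCK encodes the DNA-binding partner of BMAL1 and lies on chromosome 4 from 55427903 to 55546909 (GRCh38.p14, minus strand, protein-coding). Its level was 7.99, 3.91 and 4.92 CPM in Lv_NC libraries 1 to 3 and 13.0, 18.7 and 16.5 CPM in Lv_LINC00673 libraries 1 to 3. Every Lv_LINC00673 library was thus above every Lv_NC library, and library 1 was the nearest to the other group on both sides. The log2 fold change was 1.52 (SE 0.27, 95% interval 0.90 to 2.14, edgeR adjusted p = 0.00736), and only 3.84% of all tested genes had a higher one. CLOCK has a long transcript of low GC content (10304 bases and 37.2% GC in GENCODE v29), in the top decile of expressed genes by length and the bottom decile by GC. With the GC and length offset its log2 fold change was 0.75 (SE 0.15, adjusted p = 0.00553). The gene TMEM165 overlaps 25495 bases of CLOCK on the other strand and had a log2 fold change of -0.43, the opposite direction (adjusted p = 0.0112). Whether the counting used strand is not stated, and reads of the 2 genes cannot be told apart there.

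BMAL1, the main partner of CLOCK, stood at 13.8, 11.6 and 15.9 CPM in Lv_NC and 14.6, 16.6 and 14.0 CPM in Lv_LINC00673, which overlap (log2 fold change 0.13, SE 0.16, edgeR adjusted p = 0.58). BMAL2, a second partner, was at 19.0 ± 4.08 and 25.5 ± 5.98 CPM and did not pass either (0.43, SE 0.22, adjusted p = 0.178). Its direction turned with the offset (-0.14, adjusted p = 0.425). NPAS2, the paralogue that can stand in for CLOCK beside BMAL1, was at 88.9 ± 7.31 and 97.9 ± 7.32 CPM (log2 fold change 0.14, SE 0.10, adjusted p = 0.333), and passed with the offset (0.33, adjusted p = 0.00538) and with library totals (0.30, adjusted p = 0.0351). The ratio of BMAL1 to CLOCK counts needs no library scaling factor but is not adjusted for GC content or length. It was 1.73, 2.96 and 3.22 in Lv_NC and 1.12, 0.887 and 0.848 in Lv_LINC00673. CLOCK reads thus outnumbered BMAL1 reads in 2 of the 3 Lv_LINC00673 libraries and in 0 Lv_NC libraries. The CLOCK transcript is longer, however (10304 against 2788 bases). Per length, on the deposited FPKM, BMAL1 stayed above CLOCK in every library. These ratios were 6.79, 11.4 and 12.4 in Lv_NC and 4.38, 2.64 and 2.62 in Lv_LINC00673. They are not at a fixed length, since the length implied for CLOCK was 11.4, 8.60 and 8.84 kb in Lv_LINC00673 libraries 1 to 3. With the offset the log2 fold changes were 0.13 for BMAL1 and 0.75 for CLOCK.

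The PER genes encode the proteins that, bound to CRY, close the loop; PER1 fell, PER3 rose and PER2 did not pass. PER1, on chromosome 17 from 8140472 to 8152404 (minus strand), was at 141, 158 and 152 CPM in Lv_NC and 115, 92.6 and 100.2 CPM in Lv_LINC00673. The groups were apart, Lv_LINC00673 being the lower, with library 1 of each group again nearest the other group. The log2 fold change of PER1 was -0.55 (SE 0.10, 95% interval -0.79 to -0.32, edgeR adjusted p = 0.00818), and it was -0.42 with the offset (adjusted p = 0.00121). PER1 is GC-rich (62.7%), in the top decile of expressed genes.

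PER3, on chromosome 1 from 7784291 to 7845177 (plus strand), went the other way. Its level was 9.10, 6.64 and 7.61 CPM in Lv_NC and 15.5, 22.0 and 19.1 CPM in Lv_LINC00673, with no overlap. The log2 fold change was 1.28 (SE 0.18, 95% interval 0.86 to 1.69, edgeR adjusted p = 0.0045), exceeded by 6.94% of tested genes. With the offset it was 1.02 (SE 0.13, adjusted p = 0.000909). The PER3 transcript has 46.2% GC and 6318 bases.

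PER2, on chromosome 2 from 238244044 to 238300065 (minus strand), was at 10.2, 10.5 and 9.39 CPM in Lv_NC and 12.3, 12.3 and 15.1 CPM in Lv_LINC00673. The groups did not overlap, but the difference did not pass (log2 fold change 0.40, SE 0.15, 95% interval 0.06 to 0.73, unadjusted p = 0.0254, edgeR adjusted p = 0.0776). It passed with library totals (0.56, adjusted p = 0.0291), with the offset (0.41, adjusted p = 0.0388) and, on filtered values, in limma on log2(FPKM + 1) (0.35, adjusted p = 0.0428) and log2(FPKM + 0.1) (0.53, adjusted p = 0.0454).

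The ratios among the PER genes stood apart between the groups. PER1 reads outnumbered PER3 reads 15.5, 23.8 and 20.0 times in Lv_NC and 7.38, 4.21 and 5.26 times in Lv_LINC00673, a mean ratio of 19.8 ± 4.18 against 5.62 ± 1.62 (SD, n = 3). The ratio of PER1 to PER2 was 13.8, 15.0 and 16.2 in Lv_NC and 9.30, 7.55 and 6.66 in Lv_LINC00673. PER3 had fewer reads than PER2 in all 3 Lv_NC libraries (ratios 0.891, 0.630 and 0.810) and more in all 3 Lv_LINC00673 libraries (1.26, 1.79 and 1.27). None of these 3 ratios overlapped between the groups. For PER1 to PER3 and PER1 to PER2 this followed from the single-gene values. PER1 was lower, and PER3 and PER2 were higher, in every Lv_LINC00673 library than in every Lv_NC library. These count ratios too are not adjusted for GC content or length. With the offset the log2 fold changes were -0.42 for PER1, 0.41 for PER2 and 1.02 for PER3. The ratios are given as a description, since the smallest two-sided exact permutation p that 3 against 3 libraries allow is 0.1.

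**Figure D2:**
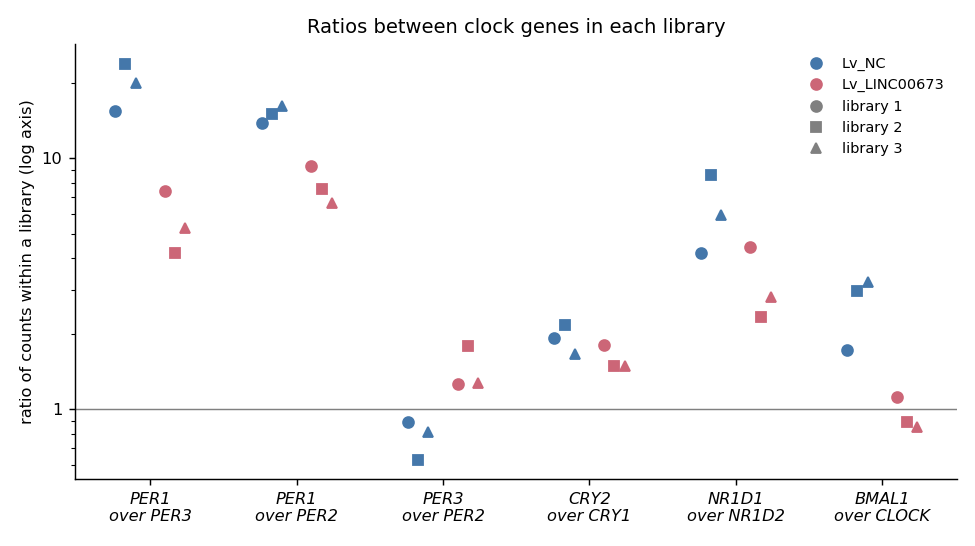
Ratio of read counts of 6 pairs of clock genes within each library (log axis), by group and library number, not adjusted for GC content or length. The PER1 to PER3, PER1 to PER2, PER3 to PER2 and BMAL1 to CLOCK ratios do not overlap between groups, while CRY2 to CRY1 and NR1D1 to NR1D2 do.

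The stretches from 250 to 121 bases before the RefSeq starts of the PER genes (GRCh38.p14) are shown for reference beside the PER values. Capitals mark a match to the E-box CACGTG, its noncanonical form CACGTT, the D-box TTATGTAA or TTACGTAA, the cAMP response element TGACGTCA and its partial site TGACG, or the ROR and REV-ERB site TAGGTCA, searched on both strands; TGACG also lies inside TGACGTCA.
PER1 (chr17:8152525-8152654, minus strand): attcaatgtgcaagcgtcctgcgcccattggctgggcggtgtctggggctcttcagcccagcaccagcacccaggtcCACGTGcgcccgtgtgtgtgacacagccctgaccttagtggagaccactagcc
PER2 (chr2:238288731-238288860, minus strand): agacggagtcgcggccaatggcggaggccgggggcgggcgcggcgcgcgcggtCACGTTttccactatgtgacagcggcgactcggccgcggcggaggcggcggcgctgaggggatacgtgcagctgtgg
PER3 (chr1:7784041-7784170, plus strand): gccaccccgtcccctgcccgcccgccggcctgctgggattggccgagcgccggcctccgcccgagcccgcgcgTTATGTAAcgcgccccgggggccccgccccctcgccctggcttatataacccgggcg
PER1, which fell, has an E-box at position -173 from its start, PER2 a noncanonical E-box at -197, and PER3, which rose, a D-box at -177. PER2 also has a D-box at -3 and a TGACG at -53, outside the printed stretch. The listed start used for PER2 lies inside the gene's annotated span, and for PER3 the first of its listed starts is shown. In the full windows of 300 bases (250 before to 50 after the start), 7.26% of 35116 RefSeq promoter windows hold the E-box, 5.34% its noncanonical form, 1.01% the D-box, 1.85% the whole cAMP response element, 24.6% the TGACG and 1.85% the ROR and REV-ERB site. Among the other clock genes, BHLHE40 has an E-box at -245, the second listed start of NR1D2 has 2 E-boxes, at -155 and -105, and a D-box at -194, and the second listed start of CRY2 has the ROR and REV-ERB site at -65. The noncanonical E-box is also found at CRY1 (-89), NR1D1 (-168) and the second listed starts of CLOCK (-187) and CRY2 (-188), and TGACG at CLOCK, CRY1, CRY2 and NR1D2. The second listed start of PER3 and the DBP window hold none of these motifs. These are matches of letters in short windows and say nothing of binding in these cells.

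The CRY genes encode the strongest repressors of CLOCK and BMAL1. CRY2, on chromosome 11 from 45847118 to 45883244 (plus strand), was at 36.9, 39.3 and 33.7 CPM in Lv_NC and 29.8, 24.7 and 25.2 CPM in Lv_LINC00673, with no overlap (log2 fold change -0.46, SE 0.12, 95% interval -0.74 to -0.19, edgeR adjusted p = 0.0236). The call for CRY2 was lost with the offset (-0.26, adjusted p = 0.0529), with library totals (-0.30, adjusted p = 0.0788) and on leaving out any of Lv_LINC00673 libraries 2 and 3 and Lv_NC libraries 2 and 3 (adjusted p = 0.0774, 0.0865, 0.0745 and 0.0501). CRY1, on chromosome 12 from 106991364 to 107093549 (minus strand), was at 19.2, 18.2 and 20.2 CPM in Lv_NC and 16.5, 16.6 and 16.9 CPM in Lv_LINC00673. All 3 Lv_LINC00673 values of CRY1 lay below the Lv_NC values, with an SD of 0.176 CPM, yet the difference did not pass (log2 fold change -0.20, SE 0.12, 95% interval -0.47 to 0.06, adjusted p = 0.23). The CRY2 to CRY1 count ratio overlapped between the groups (1.92, 2.16 and 1.66 against 1.80, 1.48 and 1.49), so a different change of the 2 genes was not shown.

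The REV-ERB genes NR1D1 and NR1D2 encode haem-binding repressors that act on BMAL1. NR1D1, on chromosome 17 from 40092793 to 40100589 (minus strand), was at 90.3, 100.5 and 98.9 CPM in Lv_NC and 86.7, 73.0 and 73.8 CPM in Lv_LINC00673. The groups did not overlap, but library 1 of Lv_LINC00673 and library 1 of Lv_NC were close to each other. The log2 fold change of NR1D1 was -0.31 (SE 0.10, 95% interval -0.54 to -0.08), and the edgeR adjusted p of 0.0485 lay at the threshold. With the offset the direction turned (0.04, adjusted p = 0.703), with library totals the call was lost (-0.15, adjusted p = 0.232), and it was also lost without any single library other than Lv_LINC00673 library 1 (adjusted p from 0.0513 to 0.161). NR1D1 shares 1075 bases with THRA, a thyroid hormone receptor gene on the other strand. THRA had a log2 fold change of -0.06 (edgeR adjusted p = 0.753). Reads of NR1D1 and THRA cannot be told apart there without the strand setting. The same limit holds where PER3 overlaps LOC124903833 (17982 bases), PER2 overlaps LOC112268433 (10878) and NR1D2 overlaps NKIRAS1 (1277), each on the other strand. It also holds for BHLHE40 with BHLHE40-AS1 (525 bases) and DBP with SPHK2 (376 bases).

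NR1D2, on chromosome 3 from 23945286 to 23980617 (plus strand), was at 21.5, 11.7 and 16.7 CPM in Lv_NC and 19.5, 31.4 and 26.3 CPM in Lv_LINC00673. Lv_NC library 1 was above Lv_LINC00673 library 1, so the groups overlapped, and the difference did not pass (log2 fold change 0.63, SE 0.24, 95% interval 0.08 to 1.18, edgeR adjusted p = 0.0873). NR1D2 passed without Lv_LINC00673 library 1 (0.78, adjusted p = 0.0443) or without Lv_NC library 1 (0.85, adjusted p = 0.0321) and in DESeq2 (0.61, adjusted p = 0.0324; 35.2% of all genes passed there, 18.0% higher), and stood at 0.10 with the offset (adjusted p = 0.619). Like CLOCK, it is in the bottom decile of expressed genes by GC content (38.5%). The ratio of NR1D1 to NR1D2 counts was 4.21, 8.56 and 5.92 in Lv_NC and 4.44, 2.33 and 2.80 in Lv_LINC00673, which overlap through library 1.

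Lv_LINC00673 library 1 was the library of its group nearest the Lv_NC mean at all 5 clock genes that passed, and Lv_NC library 1 was nearest the Lv_LINC00673 mean at 4 of these 5, with CRY2 the exception. Over the 5883 genes that passed in the whole table the shares were 69.0% and 63.4%, and over all 21933 tested genes 50.6% and 46.5%. The labels name no batch, and what sets these libraries apart was not tested.

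DBP and BHLHE40 are read as outputs of the loop and did not pass. DBP, a transcription factor gene driven through E-boxes, lies on chromosome 19 from 48630030 to 48637379 (minus strand) and was at 7.88, 12.8 and 8.64 CPM in Lv_NC and 13.3, 9.64 and 12.9 CPM in Lv_LINC00673. Library 2 ran against the other libraries in both groups, and the interval covered both directions (log2 fold change 0.29, SE 0.22, 95% interval -0.21 to 0.79, edgeR adjusted p = 0.367). DBP has a short, GC-rich transcript (2229 bases, 65.5% GC), and with the offset its log2 fold change was 0.66 (SE 0.15, adjusted p = 0.00905). BHLHE40, on chromosome 3 from 4979437 to 4985323 (plus strand), was at 127, 129 and 137 CPM in Lv_NC and 131, 122 and 108 CPM in Lv_LINC00673, which overlap (log2 fold change -0.12, SE 0.10, 95% interval -0.33 to 0.10, adjusted p = 0.407). Its direction turned with library totals (0.05) and with the offset (0.10), and it passed under no setting compared.

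**Figure D3:**
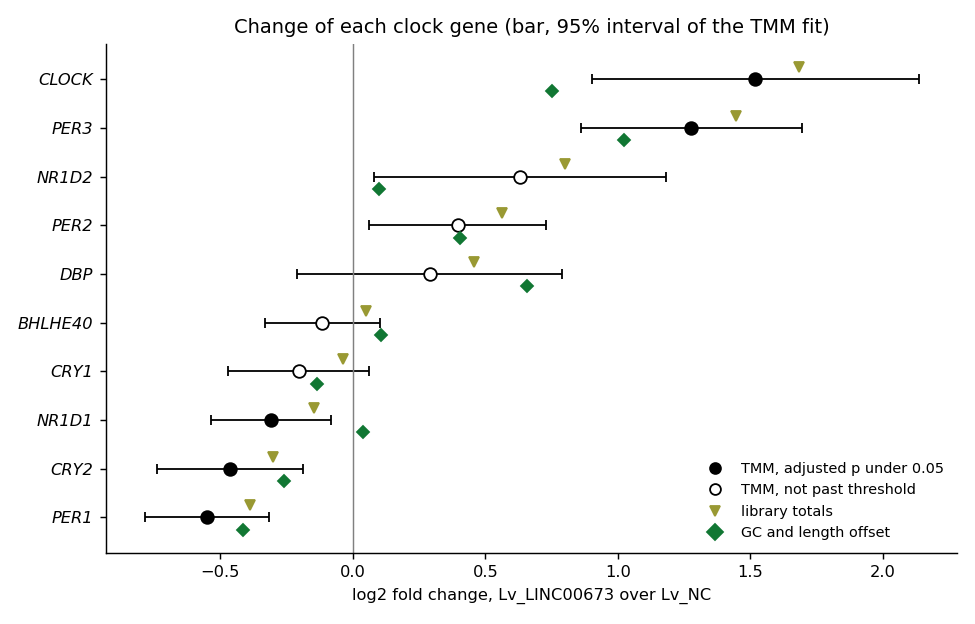
Log2 fold change of each clock gene, Lv_LINC00673 over Lv_NC, in the TMM fit (circles, filled where the adjusted p is under 0.05, with 95% interval), with library totals (triangles) and with the GC and length offset (diamonds). The offset moves CLOCK from 1.52 to 0.75 and NR1D1 from -0.31 to 0.04, and BHLHE40 also turns direction, while the other 8 genes stay on their side of 0 in all 3 fits.

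With the offset 4 of the 10 clock genes rose (CLOCK, PER2, PER3 and DBP) and 1 fell (PER1), where 31.2% of 16546 genes in that fit passed, 19.4% higher and 11.8% lower. With library totals 3 rose (CLOCK, PER2 and PER3) and 1 fell (PER1). CLOCK and PER3 passed as higher and PER1 as lower in all 3 fits.

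Levels per length were compared with the deposited FPKM values, on which the clock genes spanned a wide range. In Lv_NC the order by mean was BHLHE40 (37.7 ± 1.67 FPKM, SD, n = 3), NR1D1 (33.4 ± 1.54), PER1 (29.6 ± 1.26), CRY2 (8.06 ± 0.545), CRY1 (5.97 ± 0.390), DBP (4.41 ± 0.840), NR1D2 (2.90 ± 0.885), PER2 (1.44 ± 0.0786), PER3 (1.23 ± 0.271) and CLOCK (0.471 ± 0.181). All neighbours in this order were separate in their library ranges except PER2 and PER3. In Lv_LINC00673 the top 4 and the last place were the same, PER3 (3.47 ± 0.707 FPKM) stood above PER2 (2.12 ± 0.270 FPKM) with no overlap, and DBP (5.97 ± 0.478 FPKM) stood by mean above CRY1 (5.71 ± 0.214 FPKM) with overlapping ranges. CRY2, DBP, CRY1, NR1D2 and PER3 overlapped each with its neighbour there, as did PER2 and CLOCK. BHLHE40, NR1D1 and PER1 were thus the 3 genes of highest level in both groups, and CLOCK was the lowest by mean. In Lv_LINC00673 library 2, however, CLOCK (2.36 FPKM) was above PER2 (2.01 FPKM). The length that the FPKM values imply for CLOCK also differed between libraries, as given under other observations.

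**Figure D4:**
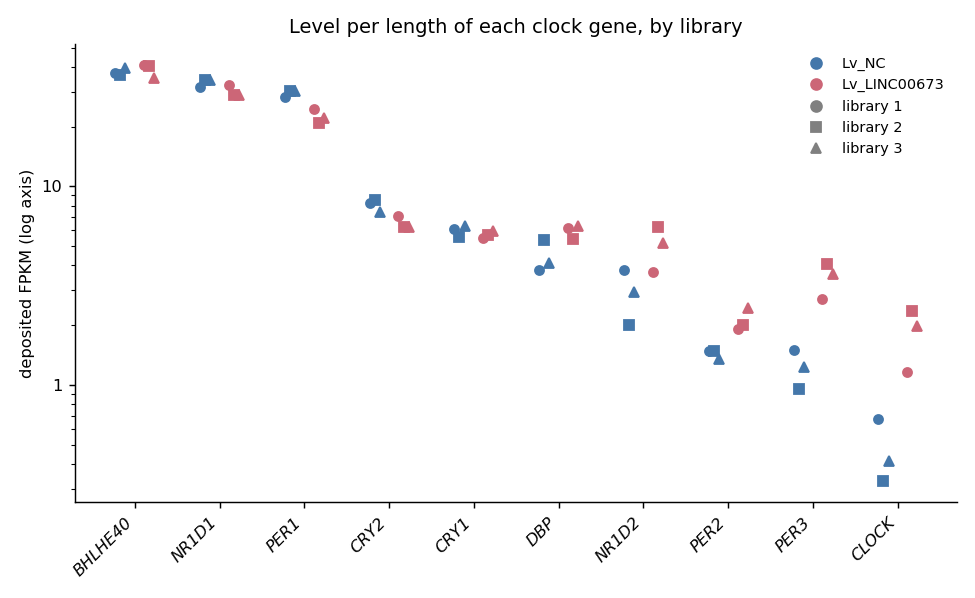
Deposited FPKM of each clock gene (log axis) in each library, ordered by the mean in Lv_NC. BHLHE40, NR1D1 and PER1 lie above 20 FPKM in all 6 libraries, and CLOCK runs from 0.326 to 2.36 FPKM.

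Of 82 other genes of the clock pathway in 6 lists, 77 were tested, and 25 rose and 11 fell, with a median log2 fold change of 0.26 beside 0.05 over all genes. That is 46.8% of them, against 26.8% of all genes. Among genes with at least 1 CPM in 3 libraries the shares lay closer: 37 of 73 passed, against 36.4% of all 16080 genes. With the offset 21 of the 77 rose and 9 fell, where 31.2% of all genes passed, with a median of 0.13 beside 0.12. Without Lv_LINC00673 library 2 the number passing was 15, without Lv_LINC00673 library 3 it was 17, and without Lv_NC library 3 it was 17, where 12.0, 12.5 and 12.7% of all genes passed.

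Among 10 tested transcription factor genes besides the main 10, 2 rose and 0 fell (20% passed, against 26.8% of all genes). BHLHE41 (DEC2), the relative of BHLHE40, rose from 9.73 ± 0.961 to 14.4 ± 1.12 CPM (log2 fold change 0.56, edgeR adjusted p = 0.0225; 0.67 with the offset). RORA, an activator at the sites that REV-ERB represses, rose from 11.1 ± 1.25 to 16.3 ± 2.37 CPM (0.55, adjusted p = 0.034), but with the offset its log2 fold change was -0.28 (adjusted p = 0.122). NFIL3, the repressor at D-boxes, was at 29.5 ± 1.32 CPM in Lv_NC and 22.6 ± 3.01 CPM in Lv_LINC00673 and did not pass (-0.39, adjusted p = 0.0565).

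Kinases and phosphatases set the pace of PER turnover, and of 15 tested 4 rose and 3 fell (46.7%, against 26.8% of all genes). The casein kinase genes CSNK1D and CSNK1E, whose products phosphorylate PER, did not pass (log2 fold changes -0.19 and -0.67, edgeR adjusted p = 0.175 and 0.0624). With the offset CSNK1D turned direction (0.06) and CSNK1E stood at -0.34, and neither passed. CSNK1E varied from 338 to 526 CPM among the Lv_NC libraries and from 213 to 353 CPM among the Lv_LINC00673 libraries. PRKAA2 and PRKAA1, the catalytic subunits of the AMP-activated kinase that marks CRY1 for degradation, rose with log2 fold changes of 1.39 and 0.87 (adjusted p = 0.0134 and 0.0161), DYRK1A with 1.09 (adjusted p = 0.0395) and the phosphatase gene PPP1CB with 0.94 (adjusted p = 0.0255). With the offset only PRKAA2 among these 4 passed (0.59, adjusted p = 0.0338), and PRKAA1, DYRK1A and PPP1CB stood at 0.27, 0.36 and 0.38. In that fit 2 of the 15 genes of the list were higher and 3 lower, where 31.2% of all genes passed.

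Of 8 tested ubiquitin ligase and protease genes, 2 rose and 1 fell (37.5%, against 26.8% of all genes). UBE3A, which encodes a ubiquitin ligase, rose from 21.5 ± 6.01 to 44.0 ± 11.4 CPM (log2 fold change 1.03, edgeR adjusted p = 0.0169). SIAH2, which targets REV-ERB alpha, fell from 62.6 ± 6.13 to 37.1 ± 2.65 CPM (-0.75, adjusted p = 0.00454). SIAH2 kept its call with the offset (-0.37, adjusted p = 0.00609), while UBE3A (0.32, adjusted p = 0.0752) did not.

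Of 20 tested genes of cofactors and chromatin enzymes, 10 rose and 1 fell, where 14.3% of all genes rose and 12.5% fell. The median log2 fold change of the list was 0.47, beside 0.05 over all genes. EP300, an acetyltransferase recruited by CLOCK and BMAL1, rose from 29.3 ± 2.25 to 69.6 ± 6.52 CPM (log2 fold change 1.25, edgeR adjusted p = 0.0014; 1.12 with the offset). The histone demethylase gene KDM5A, the methyltransferase gene KMT2A and NCOR1, a corepressor of the REV-ERB proteins, rose with log2 fold changes of 1.19, 1.19 and 1.07 (0.59, 0.70 and 0.59 with the offset, where each still passed). In the offset fit 12 of the 20 rose and 1 fell, where 19.4% of all genes rose and 11.8% fell. The median of the list was then 0.39, beside 0.12 over all genes.

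A list of regulators of PER transcription held 13 tested genes, of which 4 rose and 2 fell (46.2%, against 26.8% of all genes). It joins inducers with the salt-inducible kinase genes SIK1, SIK2 and SIK3, whose products hold back the CREB coactivators that drive PER1. Among the inducers MRTFB and NR3C1 rose and SRF fell. SRF, which drives serum-induced PER1 and PER2 transcription, fell from 149.7 ± 16.4 to 84.0 ± 10.2 CPM (log2 fold change -0.83, edgeR adjusted p = 0.0045; -0.64 with the offset). Its coactivator gene MRTFB rose from 5.94 ± 1.17 to 16.2 ± 4.17 CPM (1.45, adjusted p = 0.00533; 0.97 with the offset), the glucocorticoid receptor gene NR3C1 from 9.44 ± 3.20 to 21.3 ± 5.94 CPM (1.17; 0.55 with the offset) and the kinase gene SIK2 from 22.7 ± 1.67 to 38.0 ± 3.23 CPM (0.74; 0.52 with the offset). These 4 genes passed in both fits.

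Of 11 tested clock output genes, 3 rose and 4 fell (63.6%, against 26.8% of all genes). With the offset 1 rose and 1 fell, where 31.2% of all genes passed. KLF10, a clock-driven zinc finger gene, rose from 79.1 ± 7.13 to 120.0 ± 5.39 CPM (log2 fold change 0.60, edgeR adjusted p = 0.00534; 0.61 with the offset). NOCT, which encodes nocturnin, fell from 33.3 ± 2.78 to 21.2 ± 1.67 CPM (-0.65, adjusted p = 0.00795) and FKBP5, a glucocorticoid-responsive cochaperone gene, rose from 11.2 ± 1.60 to 15.8 ± 0.263 CPM (0.49, adjusted p = 0.0396). NOCT and FKBP5 did not pass with the offset (-0.23 and -0.04).

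The other pathway genes that passed are named here after their values were seen. GSK3A, a kinase that acts on several clock proteins, and the phosphatase genes PPP1CA and PPP5C fell, with log2 fold changes of -0.39, -0.39 and -0.31. With the offset none of these 3 passed, and PPP1CA (0.09) and PPP5C (0.11) turned direction. Among the cofactors CREBBP (0.86), DHX9 (0.98), CIPC (0.94), TIPIN (0.64), the deacetylase gene SIRT1 (0.79) and CHD4 (0.50) rose, and all but CREBBP passed with the offset. HDAC3, the deacetylase that REV-ERB proteins recruit with NCOR1, fell (-0.35) but stood at 0.04 with the offset. Of the salt-inducible kinase genes, SIK1 fell (-0.74) and SIK3 rose (0.50), and both passed in both fits. In the offset fit but not in the TMM fit, CSNK1A1 (-0.67), CSNK2A1 (-0.74) and CSNK2A2 (-0.53), genes of casein kinase subunits, passed as lower and CSNK2B (1.07) as higher. Among the outputs WEE1 rose (0.43) and TSC22D3 and POR fell (-0.44 and -0.39), and none of these 3 passed with the offset.

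**Figure D5:**
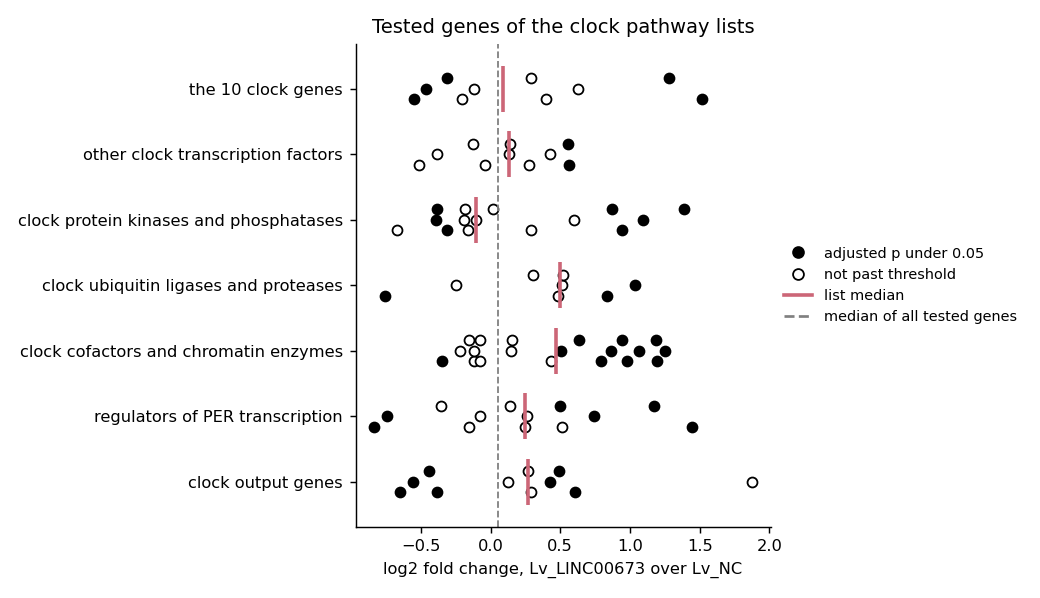
Log2 fold change of each tested gene of the 10 clock genes and of 6 further clock pathway lists (filled, adjusted p under 0.05), with the list median (solid bar) and the median of all tested genes (dashed line, 0.05). Among 20 cofactors and chromatin enzymes 10 genes are higher and 1 is lower, where 14.3% of all tested genes are higher and 12.5% lower. The 10 clock genes run from -0.55 to 1.52.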

How the data were processed

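Total RNA had been extracted with TRIzol and sequenced from TruSeq libraries (per the labels' protocols). The authors deposited raw read counts per gene and FPKM values per gene, with 1 column per library; 0 columns were left without a sample. The genome build was hg38 per the submitters' processing notes; for the aligner, counter, annotation and strand setting, nothing is given in the sources used here.

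After filterByExpr and TMM scaling, counts went into the robust quasi-likelihood test of edgeR 4.0.16 (R 4.3.3, two-sided), and p-values of 21933 genes were adjusted by Benjamini-Hochberg; an adjusted p without a tool's name is from edgeR. SE is the log2 fold change over the square root of F. The offset was a spline (4 df each) of GC content and length per library, from the longest coding GENCODE v29 transcript. On simulated counts with 200 well-counted genes changed by 2-fold, 100% were recovered with 11 false calls among 21567 genes. The simulation used the same fixed dispersion for all genes and no GC or length trend. It checks that the code runs and does not give the error rates in these data. Alternatives used DESeq2 1.42.0, limma 3.58.1, other factors and filters. Positions and promoters come from RefSeq (GRCh38.p14); all 10 genes matched. The 10 genes and the lists were chosen with earlier results of these data known. Genes outside the 10 were named by rule: up to 4 past the threshold per list by size of change, plus BMAL1, NPAS2, RORA, BHLHE41, NFIL3, CSNK1D and CSNK1E, and the 2 genes nearest each clock gene in profile. A few genes that this rule picks are not reported here.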

Additional observations from a re-analysis of the deposited data

How the results depend on the processing

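Over 20 alternatives the log2 fold changes of CLOCK (0.75 to 1.86) and PER3 (1.00 to 1.45) kept direction and call, and PER1 (-0.66 to -0.38) lost its call only with the replicate block (adjusted p = 0.0572). CRY2 kept its direction and lost its call in 11 alternatives. NR1D1 lost it in 16, and of these turned direction in the GC and length offset fit without and with the replicate block (0.0383 and 0.0390). BHLHE40 turned direction with library totals (0.0485), in limma on log2(FPKM + 1) with and without a filter (0.0375 in both) and on log2(FPKM + 0.1) (0.0383), and with the offset without and with the block (0.10 in each). The cause was not tested. Fewer of the 10 clock genes passed in limma on unfiltered log2(FPKM + 1) (3), where 18 of the other pathway genes and 2578 of all genes passed, against 5, 36 and 5883. Leaving out 1 library gave 3 to 6, 15 to 41 and 2716 to 6490. With the replicate number as a block 2, 11 and 1208 passed, and with block and offset together 23 pathway genes and 3468 of all genes. The labels do not say that the numbers pair the libraries. Over 12349 genes, deviations from the group means correlated at -0.42, -0.36 and 0.04 between same-numbered libraries. Between other-numbered libraries they correlated at -0.14 to 0.45. Deviations centred within 3 libraries depend on each other, so these values cannot settle whether the libraries are paired. The block result is given only here. The lowest count of any of the 10 clock genes in a library was 317.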

Other observations

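The deposited FPKM values of CLOCK did not follow its counts at a fixed length. Dividing the count by the FPKM and by the library's total count (scaled as FPKM is) gives the length that the FPKM values imply, which for CLOCK was 11.4, 8.60 and 8.84 kb in Lv_LINC00673 libraries 1 to 3 and 11.3, 11.1 and 11.3 kb in Lv_NC libraries 1 to 3. The highest implied length of CLOCK was 1.33 times the lowest. DBP and PER3 varied by 1.15 times each, CRY1 by 1.05 times, and the other 6 clock genes by at most 1.02 times (PER1). The FPKM values of CLOCK in Lv_LINC00673 libraries 2 and 3 are therefore higher relative to its counts than in the other 4 libraries, and its level per length depends on a gene length that the labels and headers do not state.

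The genes whose profile over the 6 libraries lay nearest to that of a clock gene were found by the root-mean-square distance of mean-centred log2 CPM among 15473 genes with a symbol and at least 1 CPM. For CLOCK these were LCOR and JMJD1C (distances 0.05 and 0.05), for PER3 DENND2C and PHF3 (0.03 and 0.03), for PER1 PSMD8 and HAX1 (0.01 and 0.01), for CRY2 POLR2I (0.01) and for NR1D1 CADM3 and ALAS1 (0.01 and 0.02). PER2 lay nearest to RCAN3 and FAM86EP (0.04 and 0.05), CRY1 to KARS1 and ZNF674-AS1 (0.02 and 0.02), NR1D2 to GALNT1 and CAPZA2 (0.04 and 0.05) and BHLHE40 to PPOX and MTSS1 (0.03 and 0.03). DBP had the most distant nearest genes, CCDC183 and CYP2T1P (0.08 and 0.08). The distances are a description over 6 libraries of 2 groups, with no test.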
